A study of Mus musculus with 6 samples.

Results

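The genes described here encode proteins of the synaptic vesicle, the presynaptic release site, the postsynaptic scaffold and the dendrite. They were chosen by name, from a list of 35 mouse gene symbols, and 32 of them were measured among 19087 genes in all. Sv2c, Shank1 and Shank2 were not analysed here. The list holds 9 vesicle proteins, 6 proteins of the fusion machinery, 2 active zone proteins, 5 adhesion molecules, 9 scaffolds, 2 subunits of the kinase CaMKII and 2 microtubule-associated proteins.

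RNA of mouse sympathetic neurons was hybridised in Cy5 on 6 Agilent arrays with 2 colours. The treated group held 3 arrays of neurons given 500 U/ml interferon-gamma (IFN-gamma), a cytokine of activated lymphocytes, with a 24 h label, and the control group held 3 arrays of neurons labelled control, also at 24 h. Each array also carried, in Cy3, a common reference from untreated P5 sympathetic cervical ganglia, P5 being postnatal day 5, and a value is the log2 of the neuron signal divided by that of the reference. Array titles begin with IFN in both groups, and the group was taken from the Cy5 channel's own label. The base and direction of the ratios were inferred from the values and the dyes, not stated with them. The labels name no strain, genotype, sex or culture age, and do not say whether the replicates were separate cultures, so p-values measure the spread between arrays, which may be technical.

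Sympathetic neurons receive cholinergic input on their dendrites and cell bodies and release noradrenaline from their axons. Vesicles are held by synapsins, docked and fused by the SNARE proteins with synaptotagmin and complexin, and placed by large active zone scaffolds. Neurexins on the presynaptic side bind neuroligins on the dendrite, where PSD-95 family proteins, Homer, Shank and gephyrin hold receptors in place.

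Promoter sequence was examined for motifs known from interferon-responsive and neuronal genes. RefSeq gave 42 start windows for 26 of the 35 listed genes (build GRCm38.p6), and each was read over the 250 bases before the start. The interferon-stimulated response element (GAAA and GAAA with 2 free bases between them) was found in 3 windows, of Homer1, Sv2b and Vamp1, against 2.98% of all windows and 24.7% of the windows of genes that rose with IFN-gamma. The cyclic AMP response element (TGACGTCA) was found in 1 window, of Syn1, against 1.55% of all windows. The left arm (CAGCACC) of RE1, the site through which REST keeps neuronal genes silent in other cells, was found in 3 windows, of Nlgn1, Sv2c and Syn1, against 5.73% of all windows. Both strands were searched, and each motif was counted on its own even where its letters could overlap those of another. A match is a run of letters, not evidence of binding.

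The windows below show a member that holds a match to the response element, the member that holds matches to both other motifs, and Map2, one of the members with the largest differences, in which none of the 3 motifs was found. Capitals mark the motifs.
Vamp1, chr6:125215331-125215580, plus strand: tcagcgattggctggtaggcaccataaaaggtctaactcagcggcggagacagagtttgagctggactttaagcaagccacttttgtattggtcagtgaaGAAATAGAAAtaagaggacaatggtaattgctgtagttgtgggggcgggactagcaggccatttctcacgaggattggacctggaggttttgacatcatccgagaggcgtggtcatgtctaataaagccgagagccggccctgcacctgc
Syn1, chrX:20920919-20921168, minus strand: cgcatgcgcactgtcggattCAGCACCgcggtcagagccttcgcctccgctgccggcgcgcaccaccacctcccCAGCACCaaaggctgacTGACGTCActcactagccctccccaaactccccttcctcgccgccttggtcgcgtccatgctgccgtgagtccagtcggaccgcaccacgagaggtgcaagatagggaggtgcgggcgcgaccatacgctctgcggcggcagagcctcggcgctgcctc
Map2, chr1:66175079-66175328, plus strand: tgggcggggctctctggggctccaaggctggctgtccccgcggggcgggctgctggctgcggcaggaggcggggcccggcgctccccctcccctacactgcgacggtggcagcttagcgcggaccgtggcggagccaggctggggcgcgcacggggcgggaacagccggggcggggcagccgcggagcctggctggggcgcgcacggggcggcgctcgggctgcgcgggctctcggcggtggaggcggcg
The capitals of Vamp1 are the response element. In Syn1 the first 2 capital runs are RE1 left arms and the last is the cyclic AMP response element. Camk2a and Syt4 are not shown.

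As a check of the treatment, Irf1 had ratios of 1.87, 1.40 and 1.83 on IFN-gamma arrays 1, 2 and 3, against -0.44, -0.66 and -0.67 on control arrays 1, 2 and 3. It rose by 2.29 on the log2 scale (SE 0.17, limma adjusted p = 0.00153), and Tap1 and Psmb9, of antigen presentation, rose by 3.82 and 3.27. Over all genes 1.14% passed the adjusted threshold of 0.05, with 1.12% higher and 0.021% lower in IFN-gamma. No measured synaptic or dendritic gene passed it.

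The first question was how the synaptic and dendritic genes stood in control neurons relative to the ganglion. The ganglion reference was measured in 1 dye with no dye swap, so these levels are a description with no test. The median of the 32 genes was 0.15, against -0.03 over all genes. It was 0.0886, 0.088 and 0.273 without control arrays 1, 2 and 3 in turn. The ratio was above 0 on all 3 control arrays for 15 of the 32, a pattern that 27.5% of all genes showed, and below 0 on all 3 for 7, against 32.6% of all genes. The control mean was at least 2-fold above the reference for 4 of the 32 (1.77% of all genes) and at least 2-fold below it for 0 of the 32 (3.89% of all genes).

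Nlgn1 and Pclo headed the order. Nlgn1, a postsynaptic adhesion molecule of excitatory synapses, averaged 1.93 ± 0.81 (SD, n = 3), and Pclo, the active zone scaffold Piccolo, averaged 1.80 ± 0.36. Camk2a, the kinase subunit known for synaptic plasticity, averaged 1.13 ± 0.02, and Map2, the dendritic microtubule protein, averaged 1.11 ± 0.10. The SDs of Nlgn1 and Pclo overlapped, as did those of Camk2a and Map2. Dlg2, the scaffold PSD-93 that is known to hold nicotinic receptors in these neurons, followed at 0.85 ± 0.28.

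At the low end stood Stx1a, the plasma membrane SNARE syntaxin, at -0.60 ± 0.33 and Nlgn2, the neuroligin of inhibitory synapses, at -0.57 ± 0.37. Homer1, Dlg4 (PSD-95) and Gphn (gephyrin, the scaffold of glycine and GABA receptors) averaged -0.35, -0.27 and -0.21. These 5 lay within 1 SD of their neighbours in the order. The other CaMKII subunit, Camk2b, was at -0.15 ± 0.18. The Camk2a level came mainly from 1 of its 2 features, with control means of 2.00 and 0.26. Scaffolds as a group had a median control level of -0.19, vesicle proteins 0.12, fusion proteins 0.23 and the 2 active zone proteins 1.20.

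**Figure D1:**
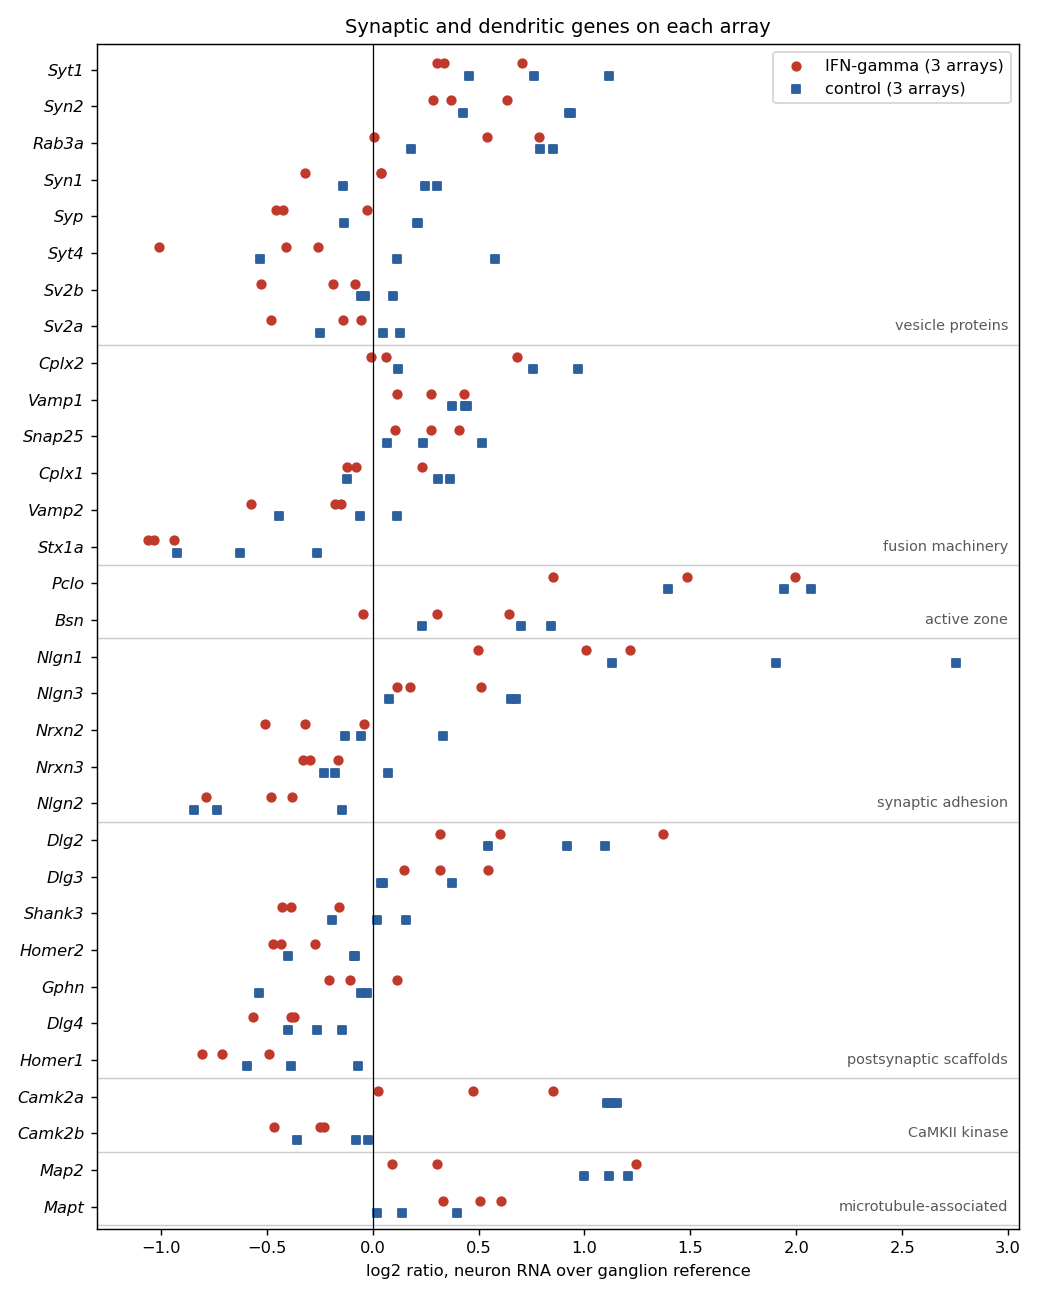
Log2 ratio of neuron RNA over ganglion RNA (x axis) for each of the 32 measured genes (rows, grouped by role and ordered by control mean), with 3 IFN-gamma arrays as circles above 3 control arrays as squares. Pclo, Nlgn1, Camk2a and Map2 have control means above 1, and for 3 genes, Camk2a, Stx1a and Sv2b, the IFN-gamma values lie below the control values without overlap.

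The second question was how these genes differed between IFN-gamma and control neurons. The differences were small and mostly negative. Of the 32 genes, 28 had a lower mean in IFN-gamma than in control neurons, against 48.8% of all genes, and the median difference was -0.21, against 0.01 over all genes. The 4 with a higher mean were Mapt, Dlg3, Gphn and Nlgn2. None passed the adjusted threshold in either direction, and the lowest adjusted p was 0.436, for Camk2a (limma). At an unadjusted p under 0.05, 2 of the 32 were lower (2.68% of all genes) and 0 were higher (5.27% of all genes). The IFN-gamma values lay below all control values in 3 of the 32, against 5.58% of all genes, and above them in 0, against 8.08%. The median half-width of the 95% interval was 0.44, so differences of the size of the median could not be shown gene by gene.

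**Figure D2:**
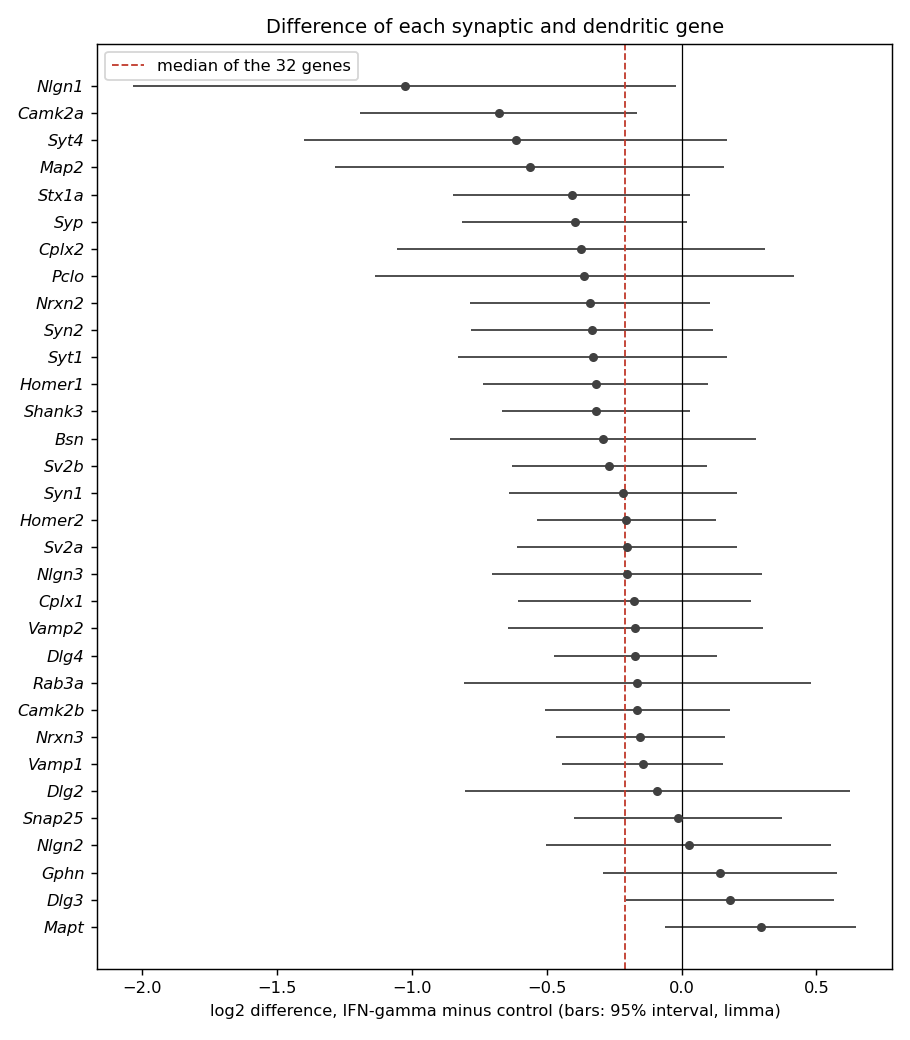
Log2 difference, IFN-gamma minus control (x axis), for the 32 measured genes (rows), with 95% intervals from limma over 3 IFN-gamma and 3 control arrays, and the median of the genes as a dashed line. The intervals of Nlgn1 and Camk2a lie below 0 before adjustment, and those of the other 30 genes include 0.

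The median difference moved with single arrays. It was -0.34 without IFN-gamma array 2 and -0.34 without control array 3, and between -0.26 and -0.16 without any one of the other 4. The member median per array was -0.13, 0.13 and -0.03 on IFN-gamma arrays 1, 2 and 3, against 0.27, 0.23 and -0.06 on control arrays 1, 2 and 3. Control array 3 therefore lay among the IFN-gamma arrays, and IFN-gamma array 2 above control array 3.

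Markers of sympathetic neurons were also mostly lower in IFN-gamma neurons, though the order of the arrays differed from that of the synaptic genes. Their median over 10 measured markers, such as Th and Dbh of noradrenaline synthesis, was -0.19, -0.15 and -0.37 on IFN-gamma arrays 1, 2 and 3, against 0.10, 0.20 and -0.44 on control arrays 1, 2 and 3. Of the 10 markers 9 had a lower mean in IFN-gamma neurons, against 48.8% of all genes, none passed the threshold, and the list median difference was -0.17. Centring each array on these markers added 0.193 to the difference of every gene. The median of the synaptic and dendritic genes was then -0.02, against 0.20 over all genes, and 19 of the 32 lay below 0, against 18.7% of all genes. Since the same constant was added to every gene, the gap of -0.22 between both medians could not change, and its staying the same is not a result. In bulk RNA, fewer neurons and less of a transcript per neuron cannot be told apart.

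Markers of other cells differed between arrays more than the synaptic genes did. The glial median was -0.17, -1.14 and -0.17 on IFN-gamma arrays 1, 2 and 3, against -0.27, -0.87 and -0.42 on control arrays 1, 2 and 3, and the fibroblast median was 0.53, -1.39 and -0.02 against -0.00, -0.91 and -0.09. Both lists were lowest on the arrays numbered 2 in each group. Between those arrays alone, IFN-gamma minus control, the synaptic and dendritic genes had a median of -0.15 and 27 of 32 were below 0, against a median of -0.02 and 52.9% below 0 over all genes. The 10 sympathetic neuron markers had a median of -0.24 between the same arrays, with 8 below 0. This set 1 array against 1, picked for these marker medians, so it has no spread between arrays, and genes are not replicates.

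Macrophage markers had a median of 0.60, -0.15 and 0.45 on the IFN-gamma arrays, against -0.40, -0.38 and -0.04 on the control arrays. Of 10 measured macrophage markers 9 had a higher mean in IFN-gamma neurons and 1 a lower mean, against 48.8% of all genes with a lower mean. Their differences ran from -0.42, for Itgam, to 1.64, with a median of 0.63. C1qa, a complement subunit that macrophages make, was the 1 that rose past the threshold, against 1.12% of all genes. It rose by 1.64 ± 0.23 (SE, limma adjusted p = 0.0288). That call was lost with the replicate block (limma adjusted p = 0.0550) and without any 1 array other than IFN-gamma array 2 (limma adjusted p from 0.0897 to 0.163). Endothelial medians ran from -0.78 to -0.60 on IFN-gamma arrays and from -0.82 to -0.28 on control arrays. The part of these cells in the differences of synaptic genes was not tested.

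**Figure D3:**
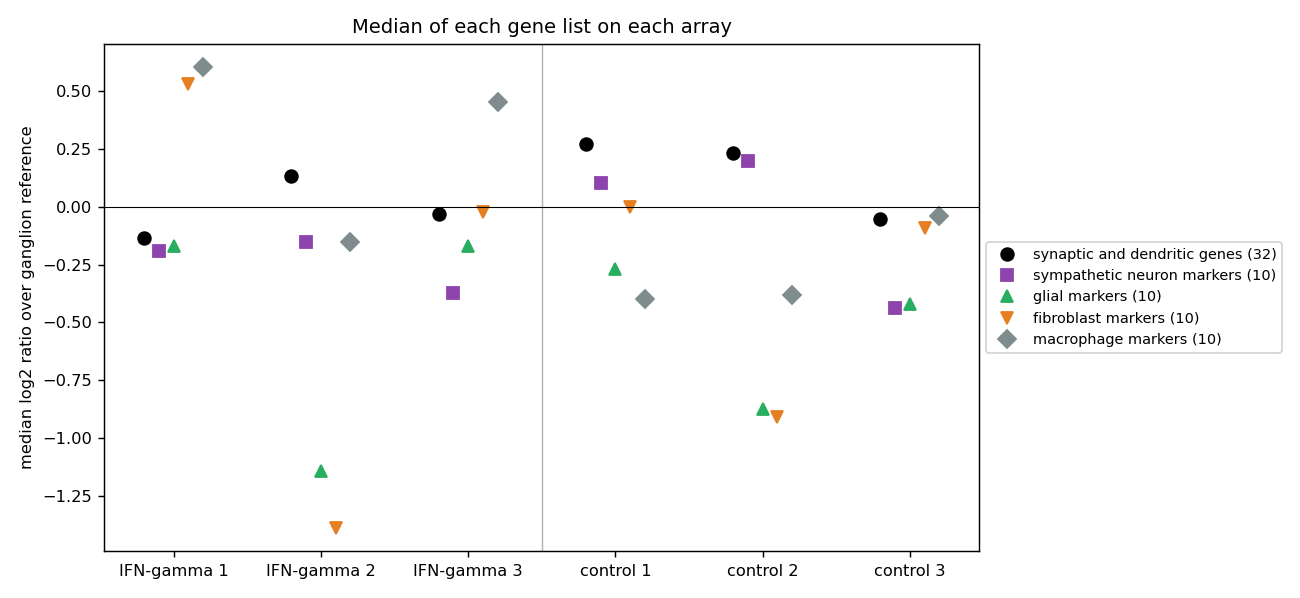
Median log2 ratio over the ganglion reference (y axis) of the synaptic and dendritic genes and of 4 marker lists on each of the 3 IFN-gamma and 3 control arrays (x axis, points shifted sideways within an array). The synaptic median is lowest on IFN-gamma array 1, at -0.13, and highest on control array 1, at 0.27, and glial and fibroblast medians are lowest on the arrays numbered 2 in both groups.

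The vesicle proteins all had a lower mean in IFN-gamma neurons, 8 of 8 measured, with differences from -0.61 to -0.16 and a median of -0.30. Syt4, a synaptotagmin known for dense-core vesicles and for not binding calcium in the usual way, had ratios of -1.01, -0.26 and -0.41 on IFN-gamma arrays 1, 2 and 3, against 0.58, 0.12 and -0.53 on control arrays 1, 2 and 3. Control array 3 lay below 2 of the IFN-gamma arrays, so the groups overlapped. The difference was -0.61 ± 0.33 (SE, adjusted p = 0.703).

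Syt1, the calcium sensor of fast release, was at -0.33 ± 0.21 (SE), and its 5 array features gave differences between -0.56 and -0.21. The synapsins Syn1 and Syn2, which tether vesicles, differed by -0.22 and -0.33, and Syp, the vesicle membrane protein synaptophysin, by -0.40. Among the SV2 proteins of the vesicle membrane, Sv2a differed by -0.20 and Sv2b by -0.27. Sv2b was the vesicle gene without overlap, at -0.19, -0.08 and -0.53 on IFN-gamma arrays 1, 2 and 3, against -0.04, 0.10 and -0.06 on control arrays 1, 2 and 3. The groups were separated by little, and 1 of its 3 features differed by -0.00. Rab3a, the small GTPase of vesicles, differed by -0.16 ± 0.27.

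In the fusion machinery 6 of 6 genes had a lower mean in IFN-gamma neurons, with a median of -0.17. Stx1a was at -1.06, -0.94 and -1.03 on the IFN-gamma arrays, against -0.26, -0.62 and -0.92 on the control arrays. The IFN-gamma values were tight and lay just below the lowest control value. The difference was -0.41 ± 0.18 (SE, adjusted p = 0.651). Its SNARE partner Snap25 was at 0.10, 0.27 and 0.41 on the IFN-gamma arrays, against 0.24, 0.52 and 0.07 on the control arrays. The groups overlapped fully, with a difference of -0.01 with a 95% interval from -0.40 to 0.37. The vesicle SNAREs Vamp1 and Vamp2 differed by -0.14 and -0.17, and the complexins Cplx1 and Cplx2, which clamp the SNARE complex, by -0.17 and -0.37.

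The active zone scaffolds Bsn (Bassoon) and Pclo differed by -0.29 ± 0.24 and -0.36 ± 0.32 (SE). Pclo was at 0.85, 1.99 and 1.49 on IFN-gamma arrays 1, 2 and 3, against 1.40, 2.07 and 1.94 on control arrays 1, 2 and 3. Its IFN-gamma array 2 exceeded 2 of the 3 control values. All 3 features of Pclo were lower in IFN-gamma neurons, by -0.61 to -0.10 as IFN-gamma minus control. The size of the Pclo difference depended on the processing, at -1.22 with quantile normalization, -0.06 without IFN-gamma array 1, -0.64 without IFN-gamma array 2, -0.56 without control array 1 and -0.23 without control array 2.

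Of the adhesion molecules, Nlgn1 had the largest difference, which was also the largest of the 32 with all 6 arrays. It was at 0.495, 1.005 and 1.21 on IFN-gamma arrays 1, 2 and 3, against 1.905, 1.13 and 2.76 on control arrays 1, 2 and 3. The control values were widely spread and the lowest of them lay below IFN-gamma array 3. The difference was -1.03 ± 0.42 (SE, 95% interval -2.03 to -0.02, adjusted p = 0.619), from a single array feature. Without control array 3 it was -0.61, smaller in size than Syt4 at -0.91, Camk2a at -0.68 and Cplx2 at -0.62. With quantile normalization it was -1.65. The other neuroligins were near or nearer to 0. Nlgn3 was at -0.20 ± 0.21 and Nlgn2 at 0.03 ± 0.22, with ratios of -0.48, -0.785 and -0.38 on the IFN-gamma arrays, against -0.15, -0.735 and -0.84 on the control arrays. The presynaptic partners Nrxn2 and Nrxn3 differed by -0.34 and -0.15.

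Among the scaffolds 5 of 7 measured genes had a lower mean in IFN-gamma neurons, with a median of -0.17. Homer1, which links metabotropic glutamate receptors to internal calcium stores, was at -0.71, -0.49 and -0.81 on IFN-gamma arrays 1, 2 and 3, against -0.07, -0.39 and -0.59 on control arrays 1, 2 and 3, a difference of -0.32 ± 0.17 (SE). Its 3 features ranged from -0.80 to 0.10. Dlg4 was at -0.56, -0.37 and -0.39, against -0.26, -0.15 and -0.40, a difference of -0.17 ± 0.13. In both genes the lowest control array was array 3.

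Dlg2 was at 0.32, 1.37 and 0.60 on the IFN-gamma arrays, against 0.55, 1.09 and 0.92 on the control arrays, with a difference of -0.09 ± 0.30 (SE). Dlg3 (SAP102) was at 0.54, 0.15 and 0.32, against 0.04, 0.05 and 0.38, and Gphn at -0.20, 0.11 and -0.10, against -0.03, -0.05 and -0.54. The groups overlapped in all 3 genes, and Dlg3 and Gphn had differences of 0.18 ± 0.16 and 0.14 ± 0.18. Homer2 and Shank3, which ties the scaffold to actin, differed by -0.20 and -0.32.

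Camk2a had the lowest p of the 32. It was at 0.02, 0.85 and 0.47 on IFN-gamma arrays 1, 2 and 3, against 1.15, 1.10 and 1.12 on control arrays 1, 2 and 3. All IFN-gamma values of the gene mean lay below the control values. The small control spread came with averaging, since the features had control ratios of 1.74, 1.98 and 2.26 and of 0.57, 0.225 and -0.015 on arrays 1, 2 and 3. The difference was -0.68 ± 0.21 (SE, 95% interval -1.19 to -0.16, unadjusted p = 0.0175, adjusted p = 0.436 by limma), or 0.625 times the control level. It came from 1 of its 2 features, which differed by -1.33, while the other differed by -0.02 with overlapping groups. Camk2b differed by -0.16 ± 0.14.

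Map2 depended on 1 array. It was at 0.09, 1.24 and 0.30 on IFN-gamma arrays 1, 2 and 3, against 0.999, 1.21 and 1.12 on control arrays 1, 2 and 3. IFN-gamma array 2 was above every control array while the other IFN-gamma arrays were far below. With all 6 arrays the difference was -0.56 ± 0.30 (SE, adjusted p = 0.703), and without IFN-gamma array 2 it was -0.91 and passed (limma adjusted p = 0.0368), as the only one of the 32, in a fit that called 2.66% of all genes, 2.51% higher and 0.147% lower. Its 3 features differed by -1.11, -0.63 and 0.05.

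Mapt, which encodes the axonal microtubule protein tau, had the highest difference. It was at 0.51, 0.33 and 0.60 on the IFN-gamma arrays, against 0.14, 0.40 and 0.02 on the control arrays. The groups overlapped through control array 2. The difference was 0.29 ± 0.15 (SE, adjusted p = 0.684), opposite in sign to Map2, and the difference between these genes was not tested.

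**Figure D4:**
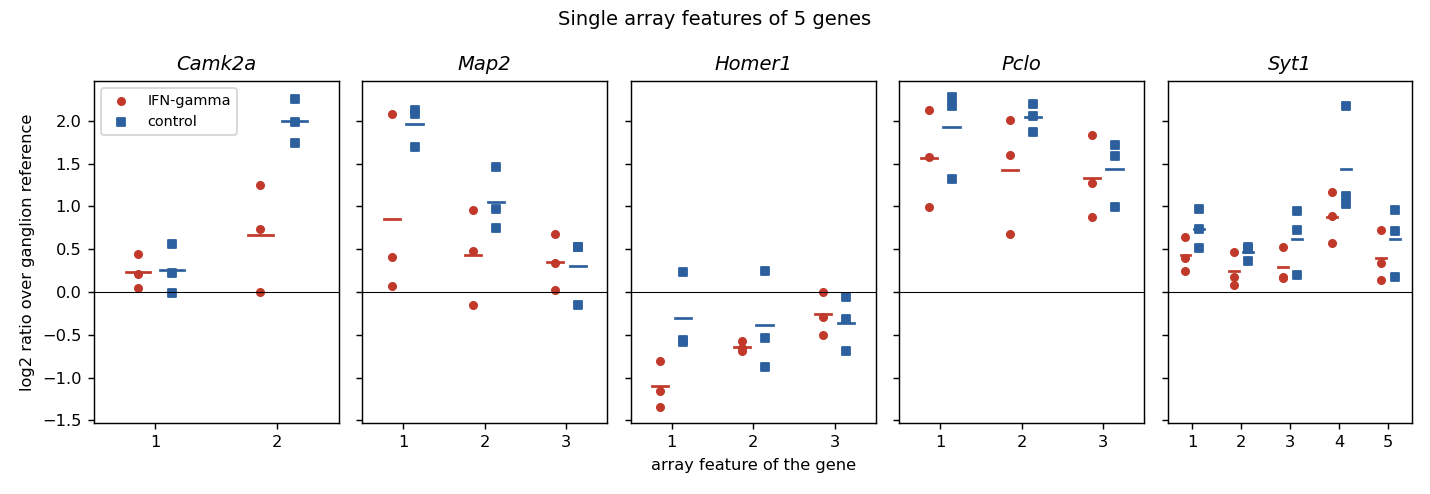
Log2 ratio over the ganglion reference (y axis) at each array feature (x axis) of 5 genes, with 3 IFN-gamma arrays as circles left of 3 control arrays as squares, and group means as bars. In Camk2a the features differed by -0.02 and -1.33, while all 5 features of Syt1 had lower means in IFN-gamma neurons.

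At the level of single features, 56 of the 71 features of these genes had a lower mean in IFN-gamma neurons, against 50.2% of all features. The annotation gave 22 genes more than 1 feature, and 4 of them, Dlg2, Homer1, Map2 and Snap25, had features of opposite sign. Features of 1 gene share its RNA and are not replicates.

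The differences were also set against the control level, because over all genes the differences ran against the control level on both sides of 0. Their median was 0.46 for control means up to -1, 0.14 between -1 and -0.5, and 0.04 between -0.5 and 0, and the ranges from -1 to 0 held 11 of the 32 genes. It was -0.04 for control means between 0 and 0.5, -0.18 between 0.5 and 1, -0.36 between 1 and 1.5, and -0.61 above 1.5. The control arrays enter both the level and the difference, so these are not independent. Above 1.5 the shift over all 99 genes was -1.13, 0.05 and -0.83 on IFN-gamma arrays 1, 2 and 3. Nlgn1 and Pclo lay in that range, with a median of -0.69, and Camk2a and Map2 in the next, with a median of -0.62.

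Of the 32 genes, 25 were below the median of all genes in their range of control mean, by a median of -0.19. When the ranges were drawn on the mean of all 6 arrays, where the control arrays weigh no more than the IFN-gamma arrays, the median difference of all genes was -0.03 between 0.5 and 1 and 0.07 between 1 and 1.5. The synaptic and dendritic genes then lay below the median of their range in 28 of 32 cases, by a median of -0.21. These were the same 28 genes that had a lower mean in IFN-gamma neurons. For all members but Pclo the range medians lay near 0, so this count repeats the earlier one and adds no further information. The IFN-gamma arrays enter the mean of all 6 arrays too, and above 1.5 the median difference of all genes was 2.07. Pclo differed from that median by -2.43, but from the median of its range of control mean by 0.25. These counts describe the genes beside their level and carry no test, and they were drawn without regard to the neuron markers, whose median difference was -0.17.

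**Figure D5:**
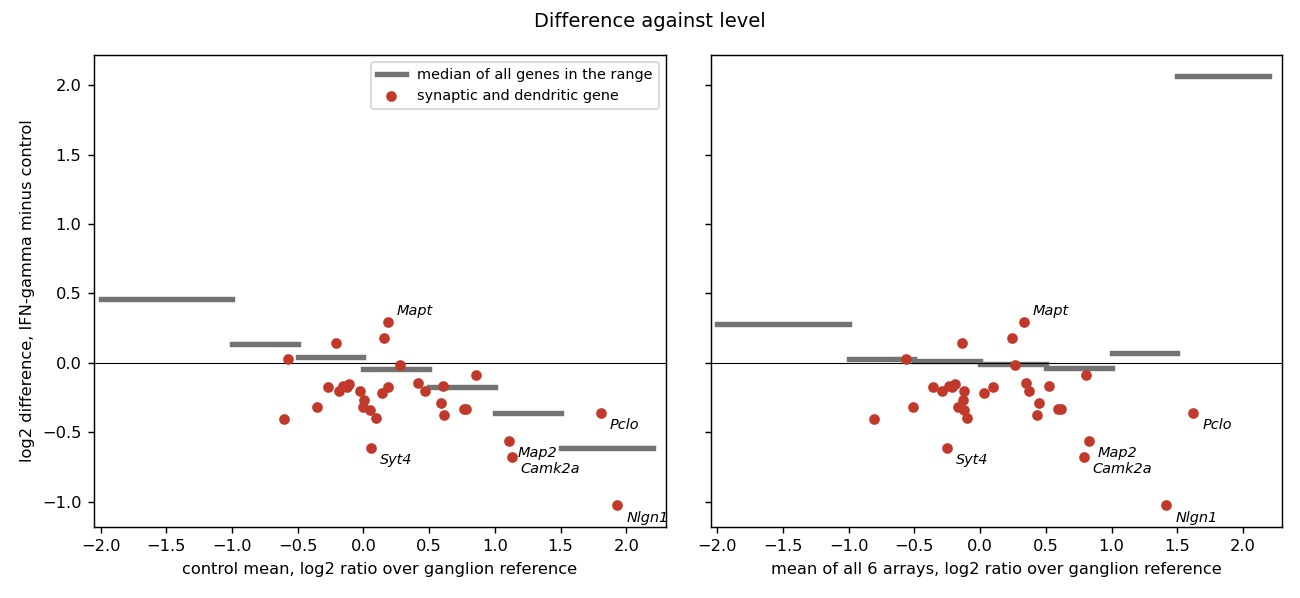
Log2 difference, IFN-gamma minus control (y axis), against the control mean (left) and the mean of all 6 arrays (right), for the 32 genes as points, with bars for the median of all genes in each range of level (the outer ranges are open-ended). Bars slope down to -0.61 on the left, lie between -0.03 and 0.07 from -1 to 1.5 on the right with 2.07 above 1.5, and most points lie below them in both panels.

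Other genes of the synapse showed median differences smaller in size than the -0.21 of the 32 genes, and the neuronal cytoskeleton showed one close to it. Differences between these lists were not tested. Over all genes 1.14% passed the threshold and 48.8% had a lower mean in IFN-gamma neurons. Of 33 measured genes of presynaptic release, 0 passed the threshold and 23 had a lower mean, with a median of -0.10. The extremes were Rab27b, a GTPase of secretory granules, at -0.52 ± 0.27 (SE) and Amph, of vesicle recovery, at 0.30 ± 0.24. Of 15 cytoskeletal genes, 0 passed and 12 had a lower mean, with a median of -0.18. Map1b, a microtubule protein of growing neurites, was lowest at -0.83 ± 0.25 (adjusted p = 0.411), and Gap43, of growth cones, was highest at 0.45 ± 0.25.

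Of 25 other postsynaptic and dendritic genes, 1 rose, 0 fell and 16 had a lower mean, with a median of -0.10. Over all genes 1.12% rose, 0.021% fell and 48.8% had a lower mean. Lrrtm2, a postsynaptic adhesion protein that binds neurexins as the neuroligins do, was the gene that rose. It was at 1.41, 1.02 and 1.95 on IFN-gamma arrays 1, 2 and 3, against -0.26, 0.10 and -0.37 on control arrays 1, 2 and 3. The groups did not overlap. It rose by 1.64 ± 0.26 (SE, limma adjusted p = 0.0492), a call that was lost without any 1 array other than IFN-gamma array 2, with adjusted p between 0.110 and 0.249. With the replicate block its adjusted p was 0.170, with arrays scaled to one spread 0.0738 and with the trended prior 0.0565. Gria1, an AMPA receptor subunit, had the lowest difference, -0.67 ± 0.14 (adjusted p = 0.137), at -0.45, -0.55 and -0.19 on the IFN-gamma arrays, against 0.38, 0.28 and 0.18 on the control arrays. Grin2a had the highest, 2.19 ± 1.32, through a ratio of -5.46 on control array 1, against -0.52 and -0.39 on the other control arrays.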

How the data were processed

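Neuron RNA (Cy5) and ganglion reference RNA (Cy3) were measured on 6 arrays. Per the submitters' processing notes, Agilent Feature Extraction was used. Its version, background correction and dye normalization are not given in the sources used here. The authors deposited 1 log2 ratio per feature, centred near 0 on each array. The log2 base and the direction, neuron over reference, were inferred from the range of the values, the dyes and the rise of known targets, so that rise is not independent of the sign. If the base were another, all folds would change. Exact zeros, 309 to 715 per array, may stand for unmeasured ratios, and no signal or background was given, so dim genes could not be filtered and their differences may be understated.

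Of 45220 features, 33653 had 1 gene in the platform annotation, 56 several and 11511 none. Symbols were updated by gene number through RefSeq (GRCm38.p6) for 33517 features, and features were averaged per gene. IFN-gamma and control arrays were compared over 19087 genes with limma 3.58.1 in R 4.3.3 (lmFit, eBayes, two-sided), with Benjamini-Hochberg adjustment at 0.05. On simulated data the fit called 52.4% of log2 changes of -1 and 49.4% of log2 changes of 1, and 5.7% of its calls were false. Many changes of that size would thus be missed. Levels against the reference had no test. Precision is limited by having 3 arrays per group.

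Members and lists were chosen with earlier results of these data known. All members are accounted for. Array values are given for those past the threshold, at an unadjusted p under 0.05, among the 5 largest differences in either direction, or among the 5 highest and lowest control means, and for Sv2b, chosen after its values were seen. Alternatives left out each array, added a replicate block, changed normalization, scale, feature summary, zeros, weights and prior, and, chosen after seeing the data, centred arrays on neuron markers. One motif searched in the promoters is not reported here.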

Additional observations from a re-analysis of the deposited data

How the results depend on the processing

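No synaptic or dendritic gene passed under any alternative but 1, the fit without IFN-gamma array 2, where Map2 passed. The count of members past the threshold thus ran from 0 to 1 when single arrays were left out, and the count over all genes from 113 to 508, against 217 with 6 arrays. The number of members below 0 was 26 to 30 with single arrays left out. Centring on sympathetic neuron markers, an alternative added after the data were seen, adds 0.193 to every gene. It put the member median at -0.0178 in place of -0.21 and the median of all genes at 0.20 in place of 0.01, with 18.7% of all genes below 0. Deviations of same-numbered arrays correlated at 0.064, 0.309 and -0.031 for numbers 1, 2 and 3, and those of other-numbered arrays at -0.269 to 0.175. The arrays numbered 2 correlated most, and whether the numbers pair the arrays was not settled. With the replicate block, 166 genes passed and the members' differences were unaltered. Some members near 0 changed sign. With marker centring, through that constant alone, Rab3a was at 0.0292, Snap25 at 0.18, Vamp1 at 0.0489, Vamp2 at 0.0208, Cplx1 at 0.0186, Nrxn3 at 0.0407, Dlg2 at 0.10, Dlg4 at 0.0216 and Camk2b at 0.0292. With the median over features Snap25 was at 0.0407 and Dlg2 at 0.0033. With single arrays left out, the difference ran from -0.38 to 0.0553 for Rab3a, -0.12 to 0.11 for Snap25, -0.11 to 0.24 for Nlgn2, -0.39 to 0.13 for Dlg2 and -0.0233 to 0.23 for Gphn. Apart from the centring, the cause was not tested. The median control level of 0.15 ran from 0.088 to 0.273 without single control arrays, a change within the spread of array medians (SD 0.18) but over 1.5 times, and from 0.145 to 0.151 under the other alternatives run. The counts on one side of 0 on every control array stayed within 1.5 times. Quantile normalization and array weights gave member medians of -0.26 and -0.29. No signal over background was available, so what dim signal limits is unknown.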

Other observations

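Molecules that have been linked to synapse removal in the brain were set beside the synaptic genes after their values were seen. The complement gene C3 was also sought and was not among the genes measured. C1qa and C1qc, subunits of the complement starter C1q, rose by 1.64 and 1.53 on the log2 scale (limma adjusted p = 0.0288 and 0.0211). The remaining subunit, C1qb, differed by 0.64 ± 0.12 and did not pass (SE, limma adjusted p = 0.108). C1qa was at 0.67, -0.18 and 0.42 on IFN-gamma arrays 1, 2 and 3, against -1.38, -1.43 and -1.19 on control arrays 1, 2 and 3. Both calls were lost without any 1 array other than IFN-gamma array 2, with adjusted p from 0.0597 to 0.163. With the replicate block C1qa was lost and C1qc kept (limma adjusted p = 0.0550 and 0.0478). IFN-gamma array 2 also had the lowest macrophage median of the treated arrays. H2-K1, H2-D1 and B2m, of MHC class I, rose by 2.42, 1.73 and 2.49 (limma adjusted p = 0.00376, 0.0356 and 0.00108). C4b was at 3.38 ± 0.61 (SE, adjusted p = 0.0865). No relation of these genes to the synaptic genes was tested.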
